A study of Homo sapiens with 6 samples.

Results

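The kinesin motor family was taken as every protein-coding gene whose symbol is KIF and a number, with or without a letter, or KIFC1 to KIFC3. The rule found 42 genes among the 40895 NCBI gene identifiers of the count files, of which 19884 are protein-coding. Each gene was put in a role class from general knowledge: 15 mitotic, 14 transport, 9 ciliary and 4 other kinesins. The classes were set with earlier results of these data known. The classes are a simplification, since KIF2A also acts in neurons and KIF3A and KIF3B also carry cargo outside the cilium. Levels were measured by polyA RNA sequencing in A375SM cells, a subline of the established human melanoma line A375 selected for metastasis. The 3 shCtrl libraries came from cells transduced with a control short hairpin RNA and the 3 shPRAME libraries from cells transduced with a hairpin against PRAME mRNA. All 6 libraries share the genotype label WT and 1 batch label. The sources used here give neither the number nor the sequence of the hairpins. They do not say whether replicates were separate transductions, so p-values cover the spread among the 6 libraries, and this spread may be technical.

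Kinesins are motor proteins that use ATP to move along microtubules or to take microtubules apart at their ends. Mitotic kinesins build the spindle, move chromosomes and complete cytokinesis. Their mRNAs are known to peak late in the cell cycle. Transport kinesins carry vesicles, mitochondria and mRNA towards the cell periphery, and in melanocytes they also move melanosomes. Ciliary kinesins carry cargo along the cilium, set its length or pass on Hedgehog signals there.

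Library totals ranged from 30842788 to 34107332 counts. PRAME, the targeted gene, had 166.4, 163.9 and 164.8 CPM (counts scaled to library size with TMM factors) in shCtrl and 57.7, 57.8 and 53.8 in shPRAME. Of the melanoma markers, SOX10 stood at 265.7 ± 7.95 CPM in shCtrl and 275.4 ± 1.48 in shPRAME, and ERBB3 at 322.2 ± 4.11 and 603.3 ± 12.3 (mean ± SD, n = 3). The summed level of 12 melanoma markers ranged from 946.8 to 953.4 CPM in shCtrl and from 1223 to 1254 in shPRAME, with 3 of 7 tested higher and 3 lower, and TYR had no count in any library. Differences between the cells reached most of the transcriptome: 74.4% of 15954 tested genes passed at an adjusted p under 0.05 (edgeR's quasi-likelihood test, Benjamini-Hochberg), 37.7% higher and 36.8% lower in shPRAME. Counts of kinesins are read against these shares. Markers of other cells were also counted, with sums given for shCtrl and then shPRAME. For 9 fibroblast markers (7 tested, 5 higher and 2 lower) the sum ranged from 112.5 to 116.5 and 88.1 to 95.3 CPM. The 2 highest, PDGFRB and FAP, were the lower ones. For 8 leukocyte markers (3 tested, all higher) it ranged from 43.0 to 45.4 and 72.4 to 74.3 CPM. Most of this was CD68 (means of 43.9 and 70.7), followed by LYZ. For 6 keratinocyte markers (1 tested, lower) it ranged from 27.7 to 29.6 and 23.2 to 24.4 CPM. Most of this was KRT10 (means of 28.2 and 23.4), followed by KRT14. For 5 endothelial markers (2 tested, 1 higher) it ranged from 0.292 to 0.947 and 3.01 to 3.85 CPM. TEK, the highest, had 1 read in each shCtrl library and 77, 99 and 105 in shPRAME. KDR, the next, did not pass. CD3E, MS4A1, NKG7, KRT1, KRT5, TP63 and CDH5 had no count, and the part of these lists in the kinesin results was not tested. In bulk RNA, fewer cells of a type and less RNA per cell cannot be told apart.

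A promoter feature that the symbol rule did not use was found in most mitotic kinesins. The hexamer TTTGAA is the core of the cell cycle genes homology region, an element known from promoters of genes expressed late in the cell cycle and bound by the MuvB subunit LIN54. RefSeq promoter windows (GRCh38.p14, 250 bases before to 50 after a start) were found for 34 of the 42 kinesins, and for 15 of 15 mitotic ones. TTTGAA or its reverse complement TTCAAA occurred in 10 of those 15 mitotic kinesins (66.7%), in 1 of 9 transport, in 0 of 7 ciliary and in 0 of 3 other kinesins. It was held by 15.8% of all protein-coding genes with an entry and by 15.2% of all start sites. The matches in the mitotic kinesins began between 55 bases before and 31 bases after the start. The windows below show them, 30 bases each, 5′ to 3′ on the strand of the gene, with 1 match in capitals, and KIF5B is shown as the transport kinesin with a match.
KIF11 (chr10:92593090-92593119, plus strand): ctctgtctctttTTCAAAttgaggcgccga
KIF14 (chr1:200620733-200620762, minus strand): gcggggcgcccaTTCAAAttgcggccttct
KIF15 (chr3:44761747-44761776, plus strand): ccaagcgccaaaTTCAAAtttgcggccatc
KIF18A (chr11:28108149-28108178, minus strand): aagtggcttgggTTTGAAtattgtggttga
KIF18B (chr17:44947754-44947783, minus strand): ccgcccggctaaTTTGAAcgcaaggcgccg
KIF20B (chr10:89701602-89701631, plus strand): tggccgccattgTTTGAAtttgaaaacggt
KIF23 (chr15:69414282-69414311, plus strand): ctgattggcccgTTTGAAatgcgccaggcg
KIFC1 (chr6:33391815-33391844, plus strand): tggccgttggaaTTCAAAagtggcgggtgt
KIF4A (chrX:70290058-70290087, plus strand): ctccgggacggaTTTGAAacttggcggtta
KIF4B (chr5:155013746-155013775, plus strand): ctctgggagggaTTTGAAacttggcggtta
KIF5B (chr10:32056548-32056577, minus strand): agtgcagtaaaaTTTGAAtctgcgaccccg

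KIF20B holds another match directly after the one in capitals, at bases 31 to 36 after the start, left in lower case. The windows of KIF4A and KIF4B were identical at 28 of 30 bases. A second motif of such promoters, CCAAT (reverse complement ATTGG), was in 11 of 15 mitotic kinesins against 42.1% of protein-coding genes. It occurred in 3 of 9 transport and 3 of 7 ciliary kinesins. Of 25 spindle and midzone partner genes with a promoter entry, 18 held TTTGAA (72.0%), and of 22 genes of intraflagellar transport, 4 (18.2%). A match describes these letters only. Of the 10 mitotic kinesins with TTTGAA, 7 rose, KIF4A fell, KIF23 did not pass and KIF4B was not tested. Of the 5 without it, KIF20A, KIF22 and KIF2C rose, KIF2A fell and KIF2B was not tested. Promoter entries were not found for KIF13B, KIF21B, KIF5A, KIFC2, KIFC3, KIF19, KIF27 and KIF26B.

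Most mitotic kinesins were modestly higher in shPRAME cells. Of 15 genes, 13 passed the filter on low counts. Of these 10 rose, 2 fell and 1 did not pass, with log2 fold changes from -0.41 to 0.79 and a median of 0.26. The median over all tested genes was 0.0061. Only KIFC1 and KIF18A rose at least 1.5-fold, a size reached in the same direction by 16.6% of all tested genes. No mitotic kinesin fell that far.

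**Figure D1:**
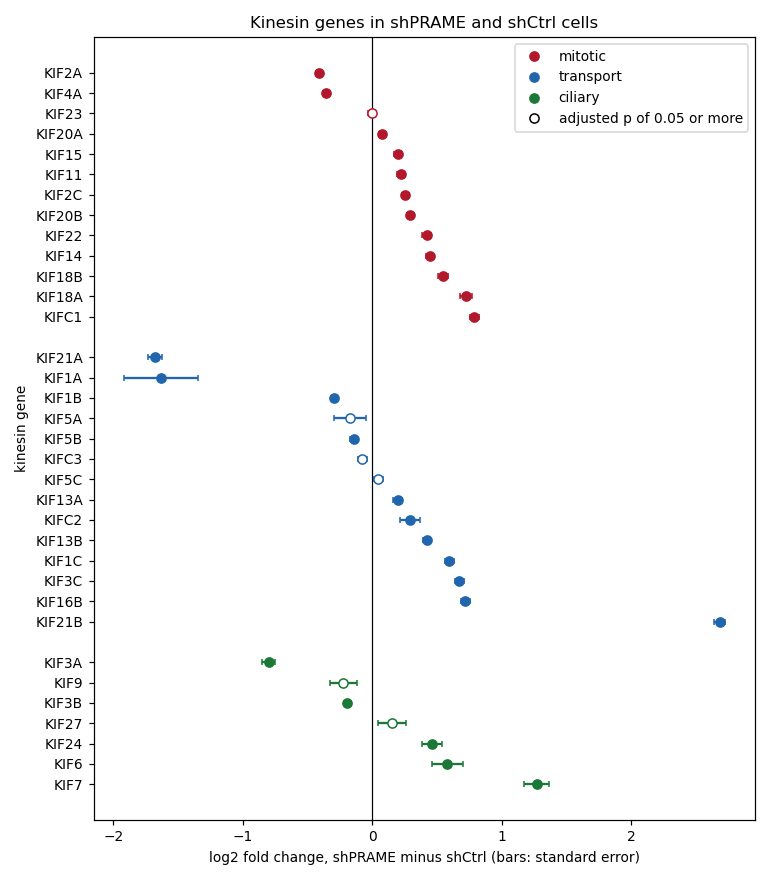
Log2 fold change of the 34 tested kinesins (x axis, shPRAME minus shCtrl) by gene (y axis), with bars for the standard error, colours for the role class and open points for genes that did not pass. Mitotic kinesins lie between -0.41 and 0.79, whereas transport kinesins spread from -1.68 (KIF21A) to 2.69 (KIF21B).

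KIFC1, a minus-end directed motor that focuses spindle poles and clusters extra centrosomes (chromosome 6, 33391461 to 33409896, GRCh38), had 60.2, 57.0 and 55.8 CPM in shCtrl and 96.6, 99.1 and 103.8 in shPRAME. All shPRAME libraries lay above all shCtrl libraries. Its log2 fold change was 0.79 (SE 0.036, edgeR adjusted p = 2.32e-12). KIF18A, which dampens chromosome movements at the metaphase plate (chromosome 11, 28020619 to 28108156), had 49.1, 47.8 and 53.0 CPM in shCtrl and 79.0, 80.6 and 87.7 in shPRAME, again without overlap. The log2 fold change was 0.72 (SE 0.044, edgeR adjusted p = 1.12e-10). Its relative KIF18B, which acts on astral microtubules, went from 71.0, 64.3 and 64.8 CPM to 96.9, 95.6 and 100.7, a log2 fold change of 0.55 (SE 0.038). The pair thus rose side by side, with a KIF18B to KIF18A ratio, per kb of transcript, of 1.13 ± 0.096 in shCtrl and 1.00 ± 0.034 in shPRAME, or 1.74 ± 0.147 and 1.54 ± 0.052 by median transcript length.

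Kinesins of cytokinesis gave smaller and uneven differences. KIF14, which works with citron kinase at the midbody, had 227.9, 235.8 and 245.5 CPM in shCtrl and 327.5, 319.7 and 318.6 in shPRAME (log2 fold change 0.45, SE 0.027). KIF20B, needed for abscission, went from 173.9, 179.6 and 188.2 CPM to 215.6, 222.8 and 226.3 (log2 fold change 0.30, SE 0.030). Both groups stood apart for these genes. KIF20A, which brings the chromosomal passenger complex to the spindle midzone, had 211.5, 208.5 and 218.6 CPM in shCtrl and 218.0, 226.0 and 230.1 in shPRAME. Its groups overlapped, and its small difference (log2 fold change 0.08, SE 0.027, edgeR adjusted p = 0.0153) lost its call without shCtrl replicate 2 (adjusted p = 0.106). KIF23, the motor of centralspindlin, had 196.4, 200.8 and 213.1 CPM in shCtrl and 198.5, 203.6 and 208.2 in shPRAME, and did not pass (log2 fold change 0.00062, SE 0.030, edgeR adjusted p = 0.986).

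Motors of spindle assembly and chromosome arms also rose by small amounts. KIF11, the bipolar motor that pushes spindle poles apart, had 284.0, 286.1 and 302.0 CPM in shCtrl and 335.4, 334.5 and 347.7 in shPRAME (log2 fold change 0.22, SE 0.027). KIF15, which can share that task, went from 84.4, 85.6 and 89.1 CPM to 97.2, 102.5 and 97.4 (log2 fold change 0.20, SE 0.032). The libraries of the groups did not overlap for either motor. KIF22, a chromokinesin that pushes chromosome arms outwards, had 82.9, 78.3 and 81.9 CPM in shCtrl and 105.0, 106.7 and 113.6 in shPRAME (log2 fold change 0.42, SE 0.035).

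The microtubule depolymerases moved apart. KIF2C, which corrects attachments at centromeres, had 111.4, 112.2 and 113.0 CPM in shCtrl and 131.6, 136.0 and 134.5 in shPRAME (log2 fold change 0.26, SE 0.026). KIF2A, which acts at spindle poles and in neurons, had 137.6, 137.8 and 138.2 CPM in shCtrl and 103.9, 101.7 and 105.5 in shPRAME (log2 fold change -0.41, SE 0.027, edgeR adjusted p = 2.67e-10). Per kb of transcript the KIF2C to KIF2A ratio was 0.926 ± 0.0048 in shCtrl and 1.47 ± 0.044 in shPRAME, so on this scale the order of the pair turned. By median transcript length the ratio was 1.61 ± 0.0083 and 2.55 ± 0.076, with KIF2C above KIF2A in both groups. That length was 1124 bases for KIF2C, against 2955 for its longest transcript. The rise of the ratio between the groups does not depend on the length. KIF2B, another depolymerase, had no count in any library, which allows up to 0.088 to 0.0973 CPM in a library (3 counts, counting error only).

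KIF4A, a chromokinesin that shortens the central spindle with PRC1 (chromosome X, 70290104 to 70420886), fell against the direction of its class. It had 146.7, 145.5 and 150.8 CPM in shCtrl and 115.9, 116.4 and 114.5 in shPRAME (log2 fold change -0.35, SE 0.026, edgeR adjusted p = 1.97e-09). The 40 tested protein-coding genes nearest to it had a median log2 fold change of -0.40. With that regional shift removed as a fixed value, KIF4A no longer passed (log2 fold change 0.04, edgeR adjusted p = 0.161). Its near-identical retrocopy KIF4B had 4 reads over the shCtrl group and 5 over shPRAME, as 1, 2 and 1 and then 0, 4 and 1 in the libraries, and how reads were divided between the copies is uncertain.

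**Figure D2:**
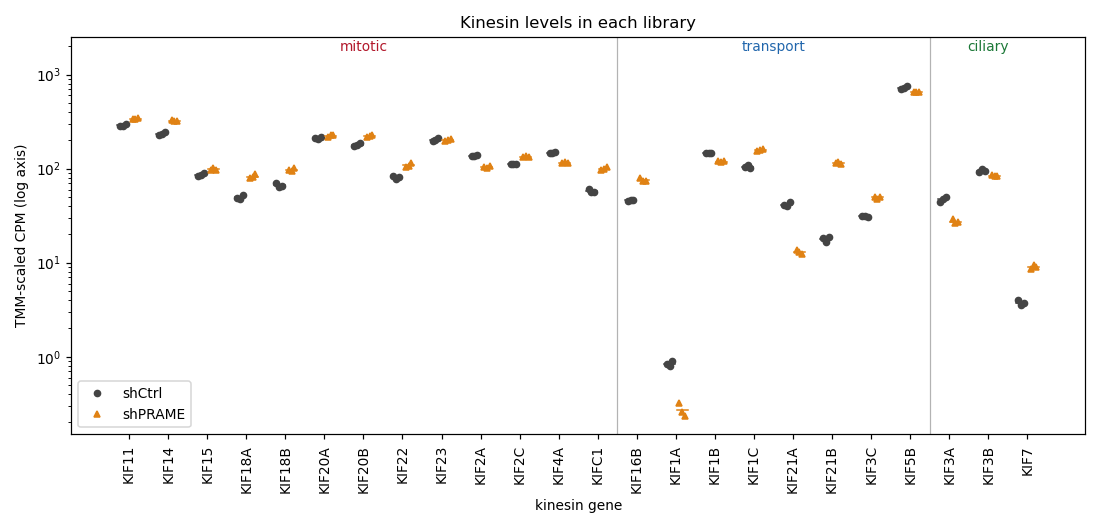
TMM-scaled CPM (y axis, log scale) of 24 kinesins (x axis), grouped by role class and given library by library in the text, with 3 shCtrl (circles) and 3 shPRAME (triangles) libraries and lines for the group means. KIF21B and KIF7 lie higher and KIF21A, KIF1A and KIF3A lower in every shPRAME library, and the mitotic kinesins shift little on this scale.

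Transport kinesins held the largest differences of the family, in both directions. All 14 were tested: 7 rose, 4 fell and 3 did not pass. Their log2 fold changes had a median of 0.12 and ran from -1.68 to 2.69. At least 1.5-fold differences were found for 6 of them, 4 higher and 2 lower, against 16.6% and 16.0% of all tested genes. The SD of log2 fold changes was 1.05 across transport kinesins, 0.36 across mitotic kinesins and 1.43 across all tested genes.

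The paralogs KIF21A and KIF21B traded places. KIF21B, a motor that limits microtubule growth and is known from neurons and lymphocytes (chromosome 1, 200969390 to 201023714), had 18.2, 16.7 and 18.6 CPM in shCtrl and 115.6, 117.8 and 111.4 in shPRAME. Its difference of 2.69 on the log2 scale (SE 0.042, edgeR adjusted p = 1.48e-18) was exceeded in size by 5.41% of tested genes. KIF21A, which restrains microtubule growth at the cell cortex beside focal adhesions (chromosome 12, 39293228 to 39443120), had 40.9, 39.8 and 43.7 CPM in shCtrl and 13.6, 12.9 and 12.3 in shPRAME (log2 fold change -1.68, SE 0.055, edgeR adjusted p = 2.64e-14). Neither gene's libraries overlapped between the groups.

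Per kb of transcript, the KIF21B to KIF21A ratio stood at 0.297, 0.280 and 0.284 in shCtrl, and at 5.65, 6.07 and 6.05 in shPRAME. The sum of the pair went from 8.09 ± 0.402 to 13.6 ± 0.402 CPM per kb, or from 11.8 ± 0.588 to 23.7 ± 0.692 by median transcript length. KIF21A was thus the main member of the pair in shCtrl and KIF21B in shPRAME. Genes beside KIF21B had a median log2 fold change of 0.05 and those beside KIF21A of 0.11. KIF14 lies 348.6 kb from KIF21B on chromosome 1, with 3 tested protein-coding genes between them, and rose far less.

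The 7 transport kinesins that rose included, besides KIF21B, motors of endosomes, integrin vesicles and melanosomes. KIF16B, which moves early endosomes through a lipid-binding domain, had 45.8, 45.9 and 46.5 CPM in shCtrl and 79.3, 74.3 and 74.4 in shPRAME (log2 fold change 0.72, SE 0.035). KIF3C, a partner of KIF3A, went from 31.04, 31.02 and 30.97 CPM to 50.3, 48.1 and 50.2 (log2 fold change 0.67, SE 0.038). KIF1C, which carries integrin vesicles and mRNA, went from 104.3, 108.4 and 100.5 CPM to 153.6, 158.3 and 162.1 (log2 fold change 0.60, SE 0.032). In each of the 3 genes every shPRAME library lay above every shCtrl library. KIF13A, the motor that brings pigment enzymes to maturing melanosomes, rose from 47.7 ± 0.720 to 54.7 ± 1.80 CPM and its paralog KIF13B from 74.2 ± 0.907 to 99.4 ± 0.602 CPM. KIFC2 rose from 10.9 ± 1.03 to 13.4 ± 0.302 CPM. KIFC2 and KIF13A no longer passed once the regional shift was removed (log2 fold change -0.15 and 0.00046, edgeR adjusted p = 0.0901 and 0.991).

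KIF1A and KIF1B were lower, while KIF1C of the same subfamily rose. KIF1A, a mainly neuronal motor of synaptic vesicle precursors (chromosome 2, 240713767 to 240821403), was near the detection limit, where 28, 26 and 28 reads were counted in shCtrl against 10, 9 and 8 in shPRAME, or 0.844 ± 0.0579 and 0.271 ± 0.0450 CPM. All its shPRAME libraries were below all shCtrl libraries (log2 fold change -1.63, SE 0.288, edgeR adjusted p = 6.88e-05). KIF1B had 145.7, 146.1 and 146.6 CPM in shCtrl and 119.8, 117.9 and 119.7 in shPRAME (log2 fold change -0.29, SE 0.025). Its neighbours had a median of -0.27, and with the regional shift removed it did not pass (log2 fold change -0.03, edgeR adjusted p = 0.340). Per kb, the KIF1C to KIF1B ratio was 0.963 ± 0.038 in shCtrl and 1.79 ± 0.052 in shPRAME (1.32 ± 0.052 and 2.46 ± 0.071 by median transcript length).

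Conventional kinesin, the main carrier of mitochondria and many vesicles, was slightly lower. KIF5B had 697.8, 726.7 and 758.0 CPM in shCtrl and 658.1, 658.0 and 660.3 in shPRAME (log2 fold change -0.14, SE 0.027, edgeR adjusted p = 0.000148). The groups did not overlap, though the fall was small. Its mainly neuronal paralogs did not pass: KIF5A had 3.91 ± 0.270 CPM in shCtrl and 3.48 ± 0.409 in shPRAME. KIF5C had 34.8 ± 0.552 and 36.0 ± 0.516 CPM. KIFC3, a minus-end motor of junctions and endomembranes, had 52.1 ± 2.07 and 49.5 ± 0.938 CPM and did not pass (edgeR adjusted p = 0.0770), but was called lower without shCtrl replicate 3 (adjusted p = 0.0138).

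Markers of neurons, in which KIF1A, KIF5A, KIF5C and KIF21B are known to be abundant, were also counted. Of these kinesins only KIF21B rose, KIF1A fell, and KIF5A and KIF5C did not pass. Of 12 neuron markers 6 were tested, of which 4 rose and 1 fell, and their summed level went from 7.89 to 9.05 CPM in shCtrl libraries to 58.8 to 63.8 CPM in shPRAME. SYT1 made up most of it (2.99 ± 0.246 and 48.2 ± 2.41 CPM), followed by GAP43 (0.260 ± 0.151 and 6.91 ± 0.481 CPM). ELAVL4, NEFM and STMN2 had no count in any library. The part of this shift in the kinesin results was not tested.

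Among ciliary kinesins the anterograde motor and the Hedgehog regulator moved in opposite directions. Of 9 genes 7 were tested: 3 rose, 2 fell and 2 did not pass, with a median log2 fold change of 0.15. KIF7, a regulator of GLI factors at the tip of the cilium (chromosome 15, 89617309 to 89663049), had 3.96, 3.55 and 3.70 CPM in shCtrl and 8.61, 9.49 and 8.98 in shPRAME (log2 fold change 1.27, SE 0.096, edgeR adjusted p = 2.13e-09). Its groups stood apart, and genes beside it had a median of 0.02.

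KIF3A and KIF3B form the motor of anterograde intraflagellar transport together with the subunit KIFAP3. KIF3A (chromosome 5, 132688812 to 132737546) had 44.7, 48.0 and 50.2 CPM in shCtrl and 29.2, 26.2 and 26.8 in shPRAME (log2 fold change -0.80, SE 0.050, edgeR adjusted p = 1.94e-10). Its neighbours had a median of -0.41, and with that shift removed it stayed lower (log2 fold change -0.39, edgeR adjusted p = 2.89e-06). KIF3B had 93.0, 98.3 and 94.5 CPM in shCtrl and 84.6, 82.7 and 83.0 in shPRAME (log2 fold change -0.19, SE 0.030). Both motor subunits were lower in every shPRAME library.

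The other parts of this complex went the other way. KIFAP3 rose from 71.6 ± 4.22 to 119.5 ± 4.91 CPM (log2 fold change 0.74, SE 0.040), and KIF3C, which can replace KIF3B beside KIF3A, rose as given above. Per kb of transcript the KIF3C to KIF3A ratio was 0.772 ± 0.046 in shCtrl and 2.14 ± 0.093 in shPRAME, the KIF3B to KIF3A ratio 2.08 ± 0.110 and 3.16 ± 0.142, and the KIFAP3 to KIF3A ratio 2.31 ± 0.095 and 6.72 ± 0.385. By median transcript length these ratios were lower, at 0.417 ± 0.025 and 1.16 ± 0.050 for KIF3C, 0.894 ± 0.047 and 1.36 ± 0.061 for KIF3B, and 1.34 ± 0.055 and 3.89 ± 0.223 for KIFAP3, and each again rose in shPRAME. The sum of KIF3A, KIF3B and KIF3C was 28.9 ± 0.738 CPM per kb in shCtrl and 27.3 ± 0.604 in shPRAME. By median transcript length it was 40.4 ± 1.26 and 35.4 ± 0.980, so the size of this fall depends on the length used. KIF3A, the subunit common to both pairings, was the least abundant of the motor subunits in shPRAME, whereas in shCtrl it stood above KIF3C, with either length.

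Kinesins of the centriole and of motile cilia were low. KIF24, which holds back cilium growth at the mother centriole, rose from between 10.7 and 12.5 CPM in shCtrl to between 14.6 and 16.7 in shPRAME (log2 fold change 0.46, SE 0.075). KIF6, an axonemal motor, rose from 2.65 ± 0.0448 to 3.97 ± 0.0549 CPM (log2 fold change 0.58, SE 0.117). KIF9, its relative in motile cilia, had 7.63 ± 0.161 CPM in shCtrl and 6.53 ± 0.913 in shPRAME and did not pass (edgeR adjusted p = 0.0611), but was called lower without shPRAME replicate 3 (adjusted p = 0.0233). KIF27 had 4.20 ± 0.261 and 4.67 ± 0.285 CPM and did not pass. The antisense gene KIF9-AS1 overlaps KIF9 and had 0.410 ± 0.0990 CPM in shCtrl and 0.207 ± 0.0998 in shPRAME. Whether counting used strand is not known, so reads of such overlapping pairs cannot be told apart. KIF23-AS1 at KIF23 had 1.16 ± 0.0608 and 0.935 ± 0.170 CPM. Both antisense genes are named after their values were seen.

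Markers of multiciliated cells are given beside these motors. Of 12 such markers 6 were tested, 2 rose and 1 fell, and their sum went from 34.7 to 37.4 CPM in shCtrl libraries to 97.8 to 104.1 CPM in shPRAME. DNAH9 accounted for most of it (21.1 ± 0.888 and 87.3 ± 2.93 CPM). MCIDAS, the next highest, did not pass (5.01 ± 0.131 and 4.98 ± 0.210 CPM), and TEKT1 had no count in any library. The part of these markers in the ciliary results was not tested.

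The remaining kinesins were near or below the detection limit. No library exceeded 0.245 CPM for any of the 8 untested members. KIF17, a motor of neurons and cilia, had 16 reads over the shCtrl group (4, 8 and 4) and 7 over shPRAME (1, 2 and 4). Its shCtrl libraries lay above the floor of 3 counts, but it was not tested. KIF19, which shortens ciliary microtubules, had 1 count in each group. KIF12, KIF25, KIF26A and KIF26B, the class without a mitotic, transport or ciliary role assigned, together had few reads: 4, 3, 3 and 2 over the shCtrl group and 1, 0, 4 and 5 over shPRAME, which gives no basis for a fold change. KIF26A, by library, had 0, 2 and 1 reads and then 0, 3 and 1, and KIF26B had 1, 0 and 1 and then 2, 3 and 0. 

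Over the whole family 28 of 34 tested kinesins passed (82.4%), against 74.4% of all tested genes and 78.1% of the protein-coding ones. Of the mitotic kinesins 76.9% were called higher, of the transport kinesins 7 of 14 and of the ciliary kinesins 42.9%, against 37.7% of all tested genes and 39.8% of the protein-coding ones. The difference between the classes was not tested. At least 1.5-fold differences were found for 2 of 13 mitotic kinesins and for 8 of 21 transport and ciliary kinesins. Among all tested genes 16.6% were that much higher and 16.0% that much lower. The median size of the log2 fold change, sign left out, was 0.35 in mitotic, 0.36 in transport and 0.46 in ciliary kinesins, beside 0.38 over all tested genes. Groups of libraries did not overlap at 29 of 34 kinesins, 20 higher and 9 lower, and at 76.5% of all tested genes, 38.7% higher and 37.8% lower.

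Per kb of its longest transcript, KIF5B had the highest level of the family in both groups, at 123.8 ± 5.12 CPM per kb in shCtrl and 112.1 ± 0.223 in shPRAME. It was followed by KIF20A (66.5 ± 1.63 and 70.2 ± 1.92), KIF11 (59.8 ± 2.02 and 69.8 ± 1.52) and KIF23 (54.6 ± 2.33 and 54.6 ± 1.30). KIF20A and KIF11 differed by less than their spread in shPRAME. On this scale ranks 2 to 13 in shCtrl were all mitotic kinesins, and KIF2A went from rank 5 to rank 10 and KIF21B from rank 29 to rank 19. The order depended on the length used. Per kb of the median transcript length KIF5B was at rank 1 in shCtrl but at rank 4 in shPRAME, where KIFC1 (136.0 ± 4.96 CPM per kb), KIF20A (120.01 ± 3.29) and KIF2C (119.3 ± 1.97) stood above its 112.1 ± 0.223. The first 13 ranks in shCtrl then held 10 mitotic kinesins, and KIFC3 and KIF13B joined KIF5B among them. Median lengths were far below the longest for KIFC1 (734 against 2706 bases), KIF2C (1124 against 2955) and KIFC3 (757 against 3427). For KIF5B both were 5877 bases. The higher ranks of KIFC1, KIF2C and KIFC3 on this scale thus rest on short annotated transcripts.

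Summed over the family, this level was 698.0 ± 13.5 CPM per kb in shCtrl and 772.9 ± 10.2 in shPRAME. Mitotic kinesins made up 65.3% ± 0.354 of it in shCtrl and 67.7% ± 0.443 in shPRAME, transport kinesins 30.5% ± 0.240 and 28.96% ± 0.359, and ciliary kinesins 4.21% ± 0.119 and 3.37% ± 0.101. The makeup of the pool by class thus moved by under 3 percentage points, while KIF5B alone went from 17.7% ± 0.428 to 14.5% ± 0.163. Scaled by the median transcript length instead, the share of KIF5B was 12.01% in shCtrl and 9.51% in shPRAME.

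**Figure D3:**
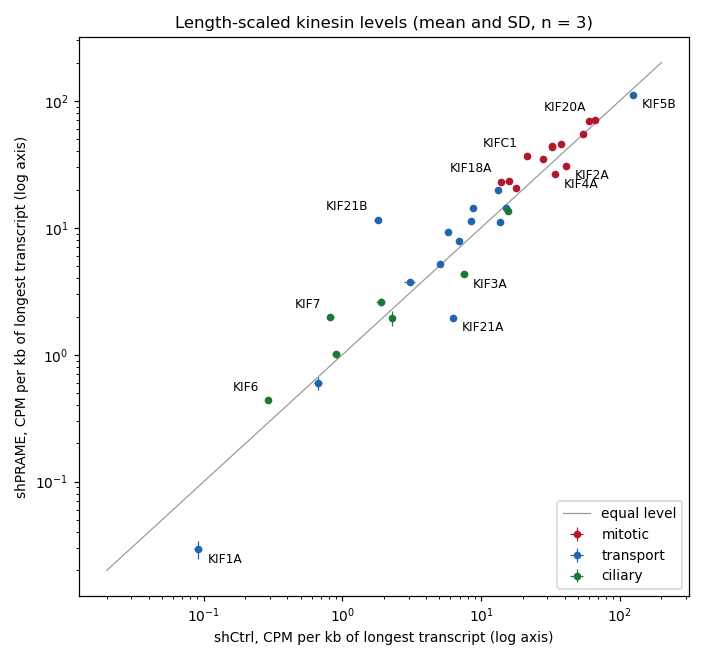
Mean CPM per kb of the longest transcript in shPRAME (y axis) against shCtrl (x axis), both on log scales, for the 34 tested kinesins, with bars for the SD over 3 libraries and colours for the role class. Mitotic kinesins occupy the upper end near the line of equal levels, and KIF21B and KIF21A lie on opposite sides of it.

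Shifts shared with neighbouring genes were measured for every kinesin, as the median log2 fold change of up to 20 tested protein-coding genes on each side. The shift entered the fit as a fixed value. Adjusted p-values with the shift removed, here and above, therefore leave out the error of that median. Calls gained or lost at small log2 fold changes are uncertain for this reason. For mitotic kinesins the neighbours' medians had a median of -0.18, below 0, while the kinesins themselves had a median of 0.26. With the shift removed, 11 mitotic kinesins were higher, 1 lower (KIF2A, log2 fold change -0.19) and 1 did not pass, with a median of 0.40. KIF23 was then called higher (log2 fold change 0.08, edgeR adjusted p = 0.0278). In that fit 70.9% of all tested genes were called, 35.7% higher and 35.3% lower.

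For the other classes the removal left no common direction. Of 14 transport kinesins 6 were higher and 4 lower, with a median of -0.01, and of 7 ciliary kinesins 3 were higher and 2 lower, with a median of -0.10. KIF5C, which had not passed, was then called higher (log2 fold change 0.17, edgeR adjusted p = 0.000851). KIFC3, which had not passed either, was called lower (log2 fold change -0.19, edgeR adjusted p = 0.000244). KIF21B, KIF21A and KIF7 kept their direction and size (log2 fold changes 2.64, -1.79 and 1.26). KIF16B, whose neighbours had a median of 0.37, went from 0.72 to 0.35. KIF3B, whose neighbours had a median of 0.30, was further down, at -0.49.

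**Figure D4:**
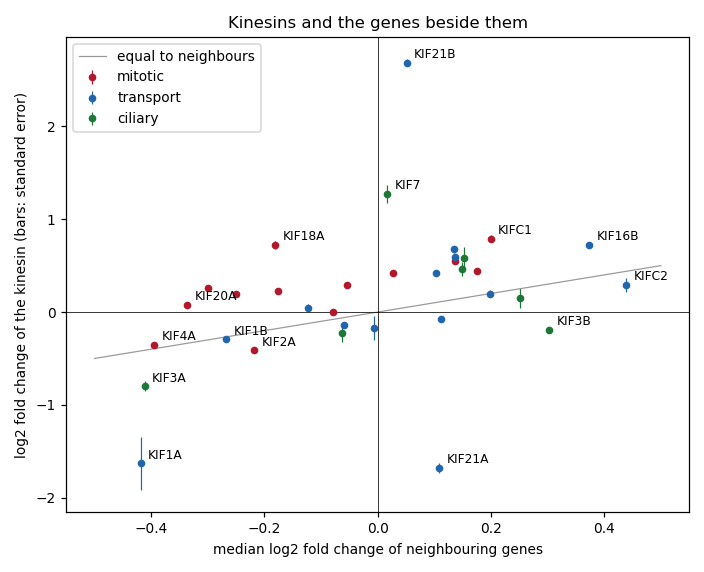
Log2 fold change of the 34 tested kinesins (y axis, bars for the standard error) against the median log2 fold change of the tested protein-coding genes beside them (x axis), with colours for the role class and a line where they are equal. KIF4A and KIF1B lie near the line, and KIF21B, KIF21A and KIF7 lie far from it.

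Genes that work with kinesins split by role. The motors CENPE and STARD9, kinesins without a KIF symbol, both rose: CENPE, which moves chromosomes to the spindle equator, from 211.0 ± 8.85 to 284.6 ± 3.68 CPM, and STARD9, a centrosomal motor, from 18.9 ± 0.785 to 21.8 ± 1.36 CPM. With the shift removed the log2 fold change of CENPE went from 0.43 to 0.13 and that of STARD9 from 0.21 to 0.37, both still called. Of 29 spindle and midzone partners 25 rose and 4 fell, with a median log2 fold change of 0.31, beside 37.7% higher and 36.8% lower among all tested genes. With the regional shift removed 23 were higher, 2 lower and 4 did not pass. TACC3, a spindle crosslinker, rose from 83.2 ± 1.72 to 187.5 ± 4.54 CPM and CLASP1, which stabilizes microtubule ends, fell from 209.9 ± 5.29 to 156.2 ± 3.29 CPM. With the shift removed TACC3 went from 1.17 to 0.63 on the log2 scale, and CLASP1 no longer passed (log2 fold change -0.05, edgeR adjusted p = 0.0919). The mitotic kinesins and these partners thus had medians of 0.26 and 0.31, beside 0.0061 for all tested genes.

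Light chains, adaptors and cargo links were mostly lower. Among 25 tested genes, 3 rose, 18 fell and 4 did not pass, and their median log2 fold change was -0.39, beside 37.7% higher and 36.8% lower among all tested genes. KIFAP3 had the smallest adjusted p among those that rose, and MAP7D1, a microtubule protein that recruits conventional kinesin, fell from 112.9 ± 1.46 to 70.1 ± 0.772 CPM. KIFBP, which binds and holds back several kinesins and is named after its values were seen, fell from 55.2 ± 2.90 to 41.7 ± 2.56 CPM. With the regional shift removed, 20 of these genes were lower and 2 higher, and MAP7D1 went from -0.69 to -0.24 on the log2 scale.

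Intraflagellar transport genes were divided. Of 24 tested, 10 rose and 14 fell (median log2 fold change -0.19), beside 37.7% higher and 36.8% lower among all tested genes. After removal of the regional shift 6 were higher and 10 lower, beside 35.7% and 35.3% of all tested genes. IFT140 rose from 16.3 ± 0.271 to 26.4 ± 1.23 CPM, and TRAF3IP1, which encodes a subunit of the anterograde train, fell from 26.0 ± 0.769 to 11.2 ± 0.554 CPM (log2 fold change -1.22, or -0.73 with the shift removed).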

How the data were processed

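Each library has 1 deposited table of raw whole-number counts by NCBI gene identifier, with no scaling, per the file headers and values. Submitters' processing notes list fastp, STAR, Salmon, GRCh38 and hg38, without roles. The counting tool, annotation release and use of strand were not found in the sources. Rows with repeated identifiers (34) were summed, and 40789 of 40895 identifiers matched RefSeq (GRCh38.p14).

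The main test was edgeR 4.0.16 under R 4.3.3 (filterByExpr, TMM, glmQLFit and glmQLFTest, with group as its term), Benjamini-Hochberg adjusted over all 15954 genes left by the filter. SE is the log2 fold change over the root of F. CPM per kb uses the longest GENCODE 29 protein-coding transcript. The scripts were tested on simulated counts. Alternatives were RLE factors, library totals, other filters, DESeq2 1.42.0, limma-voom 3.58.1, glmTreat, a replicate block, left-out libraries, median transcript length and removal of the regional shift.

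Members, role classes and lists were chosen with earlier results of these data known. Every library is printed for mitotic members, for other members called at 1.5-fold or more, and for the 2 highest of each class. Among partners, the gene with the smallest adjusted p per direction (mean of 1 CPM or more) is named, and among markers the 2 highest of a list.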

Additional observations from a re-analysis of the deposited data

How the results depend on the processing

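Of 509 refits of single kinesins, 482 kept direction and side of the threshold, 7 gained a call, 15 lost one and 7 turned sign, of which 2 are among the lost calls. Under DESeq2 28 kinesins were called, as in edgeR. Against a fold of 1.2 (glmTreat), 7726 of 15954 genes and 18 of 34 kinesins were called. Of mitotic kinesins 5 were higher and 2 lower, of transport kinesins 5 and 2, and of ciliary kinesins 3 and 1. With the regional shift removed, 1 mitotic kinesin was lower and the medians were 0.40 (mitotic), -0.014 (transport) and -0.10 (ciliary). KIF4A (0.042), KIFC2 (-0.15) and KIF27 (-0.10) then turned sign, none past the threshold. Scaled by library totals, medians were 0.31 (mitotic) and 0.17 (transport). At 1 CPM or more in 3 libraries the transport median was 0.20, because KIF1A was not tested, and KIF23 stood at -0.0021. Leaving out 1 library at a time gave medians of 0.25 to 0.28 (mitotic) and 0.12 to 0.21 (ciliary), KIF23 from -0.027 to 0.034, and 27 to 29 called kinesins. By median transcript length KIF5B held 12.01% of the shCtrl pool and 9.51% of the shPRAME pool. Same-numbered libraries did not deviate together (correlations -0.0589, -0.119 and -0.0999), and the replicate block left 28 kinesins and 11603 genes called. Depth limits the 8 untested kinesins, which lie near the 3-count floor of 0.088 to 0.0973 CPM.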

Other observations

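Cytoplasmic dynein, the motor that moves against most kinesins, with dynactin and adaptors, had no common direction. Of 27 tested genes 9 rose, 9 fell and 9 did not pass, with a median log2 fold change of 0.00076. Among all tested genes 37.7% were higher and 36.8% lower. DYNC2H1, the heavy chain of retrograde ciliary transport, rose from 58.3 ± 2.99 to 126.5 ± 1.62 CPM (n = 3), and DYNC1I1, an intermediate chain, fell from 4.94 ± 0.139 to 2.12 ± 0.275 CPM. With the regional shift removed DYNC2H1 went from 1.12 to 0.56 on the log2 scale.

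Hedgehog genes that act with KIF7 moved both ways. Of 6 tested genes 2 rose and 4 fell, beside 37.7% higher and 36.8% lower among all tested genes. GLI3 rose from 64.1 ± 2.26 to 184.4 ± 3.78 CPM and GLI2 fell from 150.6 ± 5.26 to 55.97 ± 2.69 CPM. Among 19 transcription regulators of the cell cycle, 10 rose, 6 fell and 3 did not pass (median log2 fold change 0.10). These counts stand beside the same shares of all tested genes. E2F5 rose from 6.81 ± 0.292 to 24.5 ± 0.149 CPM, and TFDP1, a partner of E2F factors, fell from 298.1 ± 2.73 to 193.0 ± 7.07 CPM. With the regional shift removed E2F5 went from 1.85 to 1.18 and TFDP1 from -0.63 to -0.12 on the log2 scale, and the list had 7 higher and 5 lower with a median of -0.0044.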
